A study of Mus musculus with 5 samples.

Results

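The S100 genes encode small calcium-binding proteins, and 9 of them were followed here in leukocytes from mouse lung: S100a1, S100a4, S100a6, S100a8, S100a9, S100a10, S100a11, S100a13 and S100a16. They were taken by symbol, and all 9 had a row among the 14462 rows of the count table and passed the filter on low values, which kept 12777 rows. The family was chosen by its symbols with the members' scaled counts in IR and ctrl already known, so the difference of each member between groups is given as a description and carries no test. There were 2 libraries labelled IR and 3 labelled ctrl. Both groups carried tumours written as MC38/MC38 in the labels, which do not explain the pair; MC38 is an established mouse colon carcinoma line. In the IR group MC38 tumours were irradiated, and lungs were taken 3 days after irradiation. RNA came from lung cells sorted for CD45, the leukocyte surface phosphatase. The labels leave out strain, age, radiation dose, the treatment of the ctrl group and whether a library is 1 mouse or a pool, so any p-value measures only the spread between these libraries, which may be technical.

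S100 proteins carry a pair of EF-hand calcium-binding loops and work mostly as dimers. In most of them, though not in all, calcium opens a surface on the dimer that binds other proteins, such as annexins and the cytoskeleton. S100A8 and S100A9 pair into calprotectin, which fills much of the cytosol of neutrophils, is also made by monocytes, sequesters zinc and manganese, and once released is read by TLR4 and the receptor RAGE as a danger signal. S100A4, S100A6, S100A10 and S100A11 are found in many cell types.

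The values are read counts per gene that the authors scaled between libraries. Dividing each library's values by its own constant step gave whole reads to within 0.25 of a step for 99.559% to 99.985% of values above 0, and the recovered totals lay between 8013743 and 10172263 reads. IR replicate 2 stood apart from the other libraries, at 131.5 on the first principal component against -51.9 to -6.00 for the rest, so differences are also given for each IR library alone. All 5 leukocyte markers were well detected, Ptprc (CD45 itself) at 17369 and 27246 in IR and 15543 to 15842 in ctrl. The sorted cells were not free of other RNA: summed markers of lung epithelium reached 119530 and 58459 in IR, against 24241 to 28312 in ctrl. Scgb1a1 of club cells made up 84.0% of that sum. Its markers did not move alike. Of 16, 11 had a positive log2 fold change, and in the limma fit given below 2 rose (Scgb1a1 and Scgb3a2) and 0 fell. Epcam was lower in IR, at 45.8 and 74.8 against 133.4 to 185.1 in ctrl. Markers of fibroblasts summed to between 0.9 and 61.3 in all 5 libraries.

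The gene cluster and the start regions of the members that the results turn on come first. In GENCODE vM21 (GRCm38, the assembly of mm10) all 9 members lie on chromosome 3. Among them 7 sit in a run whose first bases span 181.6 kb, from S100a1 (90511034 to 90514392, minus strand) to S100a9 (90692632 to 90695721, minus strand). S100a11 (93520488 to 93526287) and S100a10 (93555080 to 93564643), both on the plus strand, lie beyond a gap of 2824770 bases, with 28792 bases between them. S100a1 and S100a13 start 42 bases apart on opposite strands, and S100a4 shares bases with the read-through model Gm42674 on its own strand. How reads were assigned in such places is not described, so S100a1, S100a13 and S100a4 may hold reads of a neighbour.

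RefSeq windows (GRCm38.p6) of 300 bases, from 250 before to 50 after an annotated transcript start, were matched for 8 of the 9 members by symbol, 9 windows in all. The windows of both calprotectin genes, of S100a11 and S100a6, and of S100a4, the near neighbour of S100a6, are shown because these genes differ in how they compare between IR and ctrl. They are written 5′ to 3′ on the strand of the gene, and capitals mark letters that match one of 5 short motifs searched on both strands. S100a8 is chr3:90668821-90669120 (plus), S100a9 chr3:90695672-90695971 (minus), S100a11 chr3:93520246-93520545 (plus), S100a6 chr3:90612644-90612943 (plus) and S100a4 chr3:90603520-90603819 (plus).
S100a8: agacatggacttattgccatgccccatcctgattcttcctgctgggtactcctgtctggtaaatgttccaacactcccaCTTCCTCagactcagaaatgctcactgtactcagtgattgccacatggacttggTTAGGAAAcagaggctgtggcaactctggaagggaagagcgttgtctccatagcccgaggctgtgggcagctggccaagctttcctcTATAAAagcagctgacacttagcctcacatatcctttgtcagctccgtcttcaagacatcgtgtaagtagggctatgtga
S100a9: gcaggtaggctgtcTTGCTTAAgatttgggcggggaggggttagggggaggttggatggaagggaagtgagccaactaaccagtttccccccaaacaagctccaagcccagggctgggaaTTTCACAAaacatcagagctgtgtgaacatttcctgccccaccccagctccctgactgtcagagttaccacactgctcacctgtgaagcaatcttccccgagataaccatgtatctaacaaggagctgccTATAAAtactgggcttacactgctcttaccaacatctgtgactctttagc
S100a11: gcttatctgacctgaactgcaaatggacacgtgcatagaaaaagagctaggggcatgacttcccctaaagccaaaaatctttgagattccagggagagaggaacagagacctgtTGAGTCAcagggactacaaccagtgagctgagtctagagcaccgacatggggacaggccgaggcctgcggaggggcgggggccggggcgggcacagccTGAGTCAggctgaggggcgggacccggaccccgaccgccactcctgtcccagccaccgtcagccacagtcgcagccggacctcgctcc
S100a6: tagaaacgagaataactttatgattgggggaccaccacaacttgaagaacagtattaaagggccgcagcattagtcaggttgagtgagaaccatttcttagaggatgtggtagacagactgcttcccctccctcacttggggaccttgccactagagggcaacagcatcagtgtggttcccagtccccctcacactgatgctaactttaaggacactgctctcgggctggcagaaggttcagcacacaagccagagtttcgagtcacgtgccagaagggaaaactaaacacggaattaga
S100a4: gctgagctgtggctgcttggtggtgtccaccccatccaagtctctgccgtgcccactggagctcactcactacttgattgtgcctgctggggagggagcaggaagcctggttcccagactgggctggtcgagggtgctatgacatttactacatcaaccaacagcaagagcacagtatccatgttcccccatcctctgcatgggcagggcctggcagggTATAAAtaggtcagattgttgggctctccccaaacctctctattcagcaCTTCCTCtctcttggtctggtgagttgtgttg

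The motifs were TATAAA (the TATA box), TTNNGNAA (a loose C/EBP site), TGANTCA (AP-1), TTCNNNGAA (STAT) and GAGGAAG (PU.1), and no match overlapped one of another motif. TATAAA lies 30 to 25 bases upstream of the start of S100a8 and 31 to 26 bases upstream of that of S100a4. In S100a9 it covers bases 1 to 6 after the annotated start. TATAAA occurs in 13.6% of all 32851 windows, and in 3 of the 9 member windows. The C/EBP letters occur in S100a8 once (TTAGGAAA) and in S100a9 at 2 places on the opposite strand (TTGCTTAA and TTTCACAA), while 40.7% of all windows hold a match. GAGGAAG, found in 13.6% of all windows, was matched on the opposite strand in S100a8, upstream of the start, and in S100a4, downstream of it. S100a11 holds TGAGTCA at 2 places, 136 to 130 and 38 to 32 bases upstream of its start, and 1 of the 2 windows of S100a16 holds TGAATCA; 7.81% of all windows have such a match. None of the 9 windows held the STAT letters, which occur in 8.3% of all windows. S100a6 held no match to any of the 5 motifs.

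In IR libraries S100a8, S100a9, S100a6 and S100a11 were higher than in every ctrl library, by 2.45 to 3.10 times on average, while S100a4, S100a10, S100a1, S100a13 and S100a16 overlapped between the groups. The comparison sets lung leukocytes of the irradiated group against those of the ctrl group. In bulk RNA, fewer or more cells of a type and less or more RNA per cell cannot be told apart. The median log2 fold change of the 9 members was 1.28, beside -0.05 over all 12777 genes tested. With limma on the whole table, 2 members (S100a6 and S100a11) passed an adjusted p of 0.05, both higher in IR, where 1.14% of all genes passed in that direction and 1.50% in either. On recovered reads edgeR counted 3 members, with S100a9 added, where 1.17% of all genes passed, 1.03% higher and 0.141% lower. DESeq2 counted S100a6 and S100a11, where 3.80% of all genes passed, 2.75% higher and 1.04% lower. Since the members were chosen with this comparison known, nothing is read from these counts. Without IR replicate 2 the count was 1 (S100a6), where 0.368% of all genes passed as higher, and without IR replicate 1 it was 4, with S100a8 and S100a9 added, where 3.60% did. These 4 were also counted without ctrl replicate 3, where 0.869% of all genes passed as higher, and with robust estimation off, where 0.837% did. The group of 4 members whose libraries did not overlap stands beside 15.2% of all genes with both IR libraries above all ctrl libraries, and 0 members beside 16.3% of genes with both below.

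**Figure D1:**
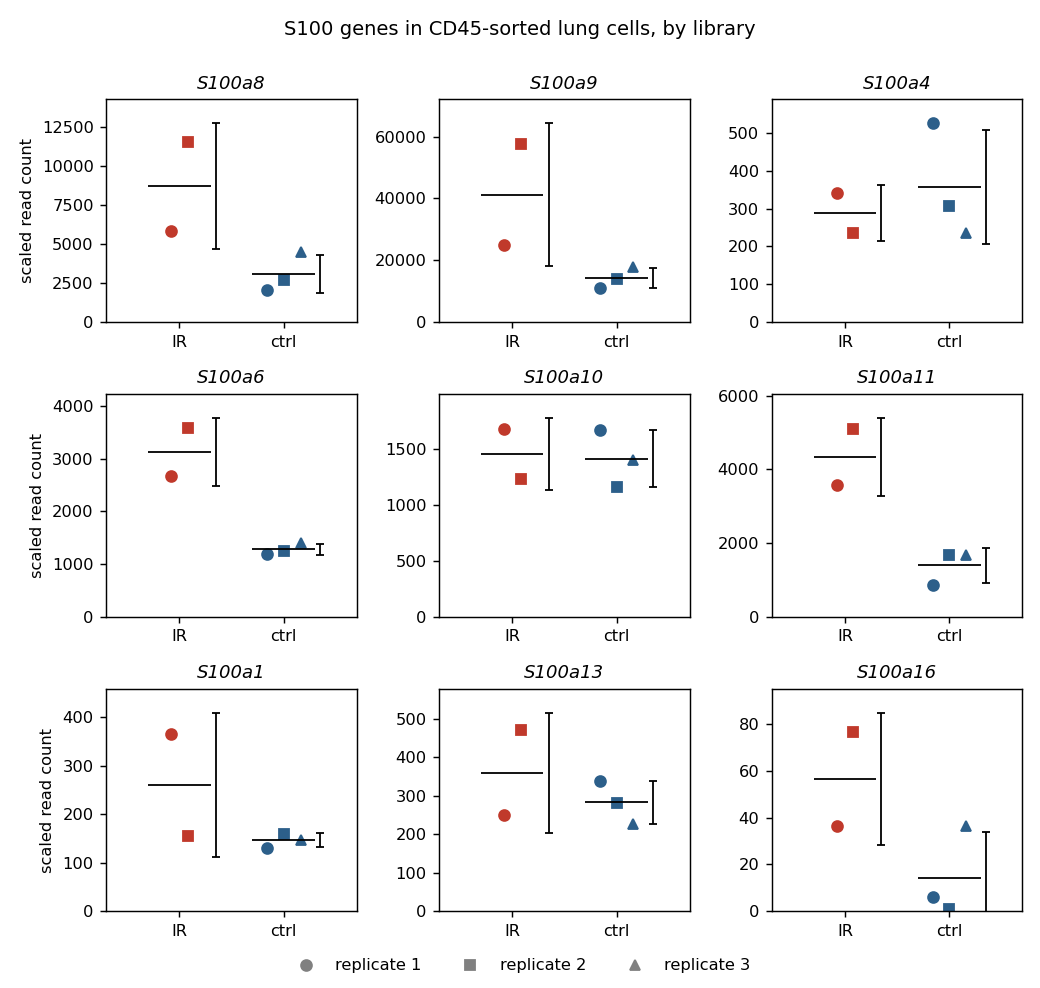
Scaled read counts (y axis, linear, from 0) of the 9 S100 genes in each library, with 2 IR libraries at left and 3 ctrl libraries at right in each panel; symbols give the replicate, horizontal lines the group mean and bars the SD (the ctrl bar of S100a16 is cut off at 0). S100a8, S100a9, S100a6 and S100a11 have both IR points above all ctrl points, and the other 5 genes overlap.

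Calprotectin was the most abundant part of the family. The scaled count of S100a9 reached 24750 and 57485 in the IR libraries (replicates 1 and 2), against 11068, 13780 and 17704 in ctrl replicates 1 to 3. Both IR libraries lay above the highest ctrl library, and IR replicate 2 was 2.32 times IR replicate 1. The means were 41117 ± 23147 (SD, n = 2) in IR and 14184 ± 3336 (SD, n = 3) in ctrl, a log2 fold change of 1.44 ± 0.35 (SE). It was 0.83 for IR replicate 1 alone and 2.05 for IR replicate 2 alone. S100a9 ranked 11 and 5 by scaled count among all rows in IR replicates 1 and 2, and 41, 26 and 16 in ctrl replicates 1 to 3.

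S100a8, the partner of S100a9 in the heterodimer, showed the same order of libraries at a lower level. It was 5843 and 11561 in IR replicates 1 and 2, against 2079.9, 2670.1 and 4469 in ctrl replicates 1 to 3. The groups did not overlap, although ctrl replicate 3 came nearest to the IR libraries. The log2 fold change of 1.49 ± 0.36 (SE) was 1.0 for IR replicate 1 alone and 1.99 for IR replicate 2 alone. Within a library S100a9 had 4.24 and 4.97 times the scaled count of S100a8 in IR replicates 1 and 2, against 5.32, 5.16 and 3.96 times in ctrl replicates 1 to 3. This ratio overlapped between groups, and both IR libraries lay inside the ctrl range. Per kilobase of merged exon the ratio was 5.63 and 6.61 in IR and 7.07, 6.86 and 5.27 in ctrl. Per kilobase of the longest transcript it was 4.06 and 4.77 in IR and 5.11, 4.95 and 3.80 in ctrl, so the direction of the length correction depends on the length used.

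S100a8 and S100a9 together made up 77.4% and 86.4% of the summed counts of the family in IR replicates 1 and 2, against 73.7%, 77.3% and 81.2% in ctrl replicates 1 to 3. The whole family took 0.524% and 0.949% of all scaled counts in IR, against 0.247%, 0.291% and 0.368% in ctrl. The share of the library was thus above the ctrl range in both IR libraries, while the calprotectin share within the family was above it in IR replicate 2 alone.

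Among the members tied to the cytoskeleton and to cell growth, S100a6 was higher in IR and S100a4 was not. S100a6, or calcyclin, binds annexins and the ubiquitin-ligase adaptor encoded by Cacybp. It was 2673 and 3583 in IR replicates 1 and 2, against 1182, 1246 and 1398 in ctrl replicates 1 to 3. The ctrl libraries lay close together, within 1.18 times of each other, and both IR libraries were clear of them. The log2 fold change was 1.28 ± 0.21 (SE), at 1.07 and 1.49 for IR replicates 1 and 2 alone. S100a4, also called metastasin, binds non-muscle myosin and is made by fibroblasts, monocytes and T cells. It was 341 and 236 in IR replicates 1 and 2, against 526, 308 and 236 in ctrl replicates 1 to 3. Its groups overlapped over nearly their whole range, and ctrl replicate 1 alone stood higher. The log2 fold change was -0.25 ± 0.35 (SE), and it was 0.08 without ctrl replicate 1. S100a6 lies downstream of S100a4 on the same strand, with S100a5 between them. The ratio of S100a6 to S100a4 was 7.84 and 15.2 in IR, against 2.25, 4.05 and 5.93 in ctrl.

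**Figure D2:**
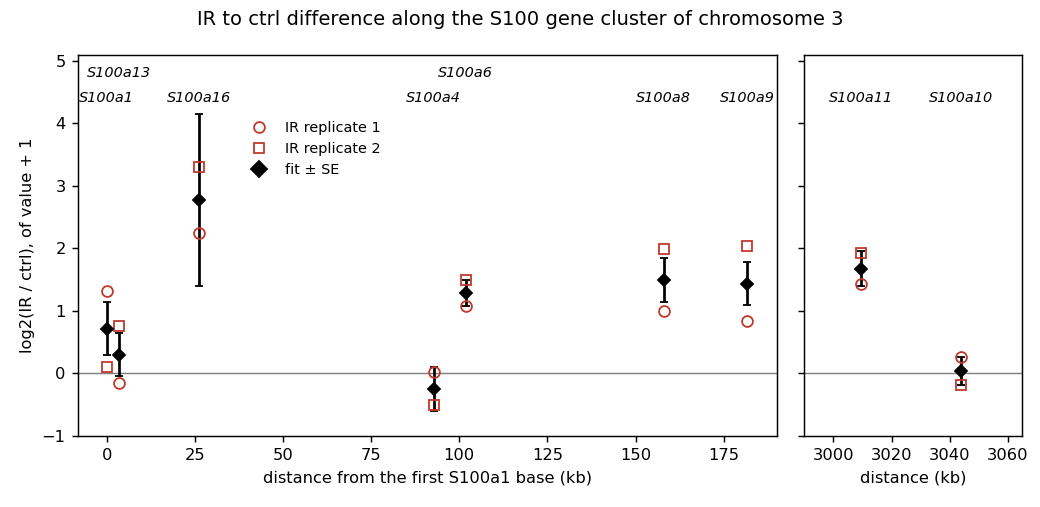
Difference between IR and ctrl on the log2(value + 1) scale (y axis) of each S100 gene against the distance of its first base from that of S100a1 on chromosome 3 (x axis, kb; the right panel continues it). Black diamonds are the fitted value ± SE, red circles and squares IR replicates 1 and 2 against the ctrl mean; neighbours S100a4 (-0.25) and S100a6 (1.28), and S100a11 (1.68) and S100a10 (0.04), do not move alike.

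The members best known as annexin partners parted in the same way. S100a11, which binds annexin A1 and takes part in membrane repair, was 3575 and 5083 in IR replicates 1 and 2, against 848, 1665 and 1676 in ctrl replicates 1 to 3. Both IR libraries were above the highest ctrl library, and ctrl replicate 1 was the lowest. Its log2 fold change of 1.68 ± 0.28 (SE) was 1.42 for IR replicate 1 alone, 1.93 for IR replicate 2 alone, and 1.35 without ctrl replicate 1. S100a10, which joins with annexin A2 in a tetramer that holds membrane proteins and plasminogen at the cell surface, was 1682 and 1226 in IR, against 1671, 1162 and 1404 in ctrl. The groups covered nearly the same range. The log2 fold change was 0.04 ± 0.22 (SE), and -0.08 after scaling to library totals. In the same libraries Anxa2 itself was 6888 and 8658 in IR and 3675, 4296 and 4974.5 in ctrl. The ratio of S100a10 to Anxa2 was 0.244 and 0.142 in IR, against 0.455, 0.270 and 0.282 in ctrl, with no overlap. Since S100a10 itself overlapped between groups and Anxa2 was higher in IR, other genes without a difference could part on this ratio too. The share of all genes that did was not computed, and nothing is read from it.

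The 3 remaining members were at low levels and varied between libraries without a division by group. S100a1, known for its action on calcium cycling in heart and skeletal muscle, was 366 and 156 in IR, against 131, 159.8 and 147 in ctrl. IR replicate 1 alone was high, and IR replicate 2 was within the ctrl range; the summed epithelial markers were also highest in IR replicate 1 (119530, against 58459 in IR replicate 2), and their part in S100a1 was not tested. S100a13, which helps to export FGF1 and interleukin 1 alpha by a route outside the secretory pathway, was 249.6 and 469.9 in IR, against 337, 282 and 228 in ctrl. Here IR replicate 2 was high and IR replicate 1 lay inside the ctrl range. S100a16, a member found in many tissues, was 36.5 and 76.6 in IR, against 5.9, 0.9 and 36.5 in ctrl. These values rest on 39 and 91 reads in IR and 7, 1 and 50 reads in ctrl; the exact Poisson 95% interval of the single read reaches 5.57, and such intervals cover counting error only. One ctrl library equalled an IR library, and the log2 fold change was 2.77 ± 1.37 (SE), or 1.66 with a pseudocount of 10.

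Per kilobase of exon, the order of levels over all 5 libraries ran from S100a9 through S100a8, S100a11, S100a10, S100a6, S100a4, S100a13 and S100a1 to S100a16. S100a9 had 78769 ± 44343 (SD, n = 2) scaled counts per kilobase in IR and 27172 ± 6391 (SD, n = 3) in ctrl, and S100a16 had 35.0 ± 17.5 (SD, n = 2) in IR and 8.93 ± 11.9 (SD, n = 3) in ctrl. S100a9 lay above S100a8 in all 5 libraries and their ranges did not overlap. S100a8 (2997 to 16659 per kilobase) and S100a11 (1659 to 9947) overlapped in range, though S100a8 was the higher in each library. S100a10 (959 to 1387) and S100a6 (865 to 2621) could not be ordered: S100a10 was the higher in 3 of the 5 libraries, and S100a6 in both IR libraries. S100a6 overlapped S100a4, S100a4 overlapped S100a13 and S100a13 overlapped S100a1, while the range of S100a16 lay wholly below that of S100a1. With the longest transcript in place of merged exons all 9 members kept their places, while the ranges of S100a9 and S100a8, and of S100a11 and S100a10, overlapped and those of S100a6 and S100a4 did not.

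**Figure D3:**
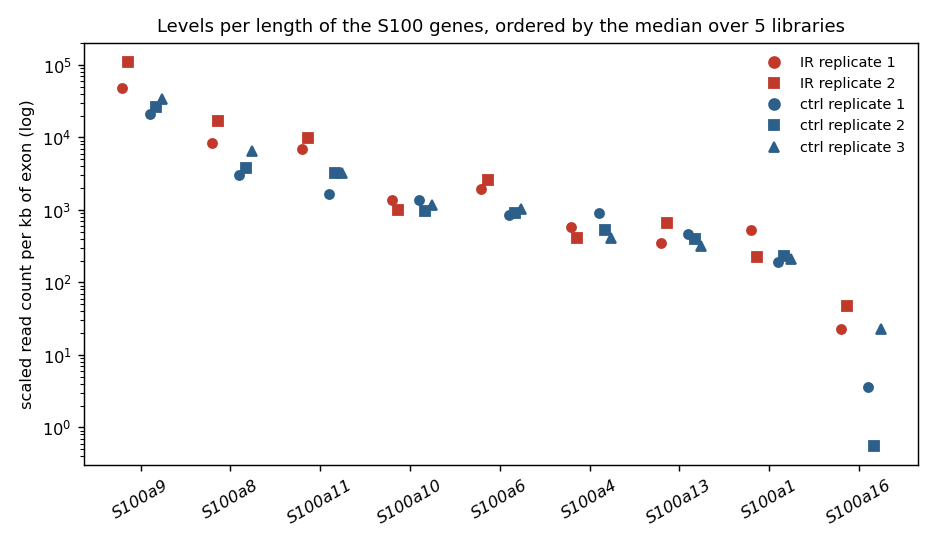
Scaled read count per kilobase of merged exon (y axis, log) of the 9 genes in order of their median over 5 libraries, with IR libraries left and ctrl libraries right for each gene. S100a9 is above S100a8 in every library, and S100a16 is lowest.

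Neutrophil markers moved with the members that were higher in IR. The 14 mature neutrophil markers, with Csf3r, the G-CSF receptor, as the largest part (20.2% of the sum), summed to 52682 and 94169 in IR replicates 1 and 2, against 21516, 29209 and 39423 in ctrl replicates 1 to 3. In the limma fit 5 of them rose (Csf3r, Cxcr2, Retnlg, Trem1 and Hdc), 0 fell, and all 14 had positive fold changes; 12 had an unadjusted p under 0.05, and only Cxcr1 was at 0 in any library, ctrl replicate 1. The count that rose was 0 without IR replicate 2, with 8 at an unadjusted p under 0.05, and 1 without ctrl replicate 1 or ctrl replicate 2; without IR replicate 1 it was 10 and without ctrl replicate 3 it was 8. The share of all genes that passed as higher was 1.14% with all libraries, 0.368% without IR replicate 2, 0.219% and 0.274% without ctrl replicates 1 and 2, 3.60% without IR replicate 1 and 0.869% without ctrl replicate 3. The marker lists, too, were chosen with earlier results of these data known, so the counts are a description.

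Set against that sum, whose mean in IR was 2.44 times that in ctrl, the higher members no longer parted by group. Of all genes, 1.21% had both IR libraries above all ctrl libraries on this ratio and 60.7% had both below. Since so few genes parted upward, the overlap of the higher members is given as a description and nothing is read from it. S100a8 equalled 11.1% and 12.3% of it in IR, against 9.67%, 9.14% and 11.3% in ctrl, so that ctrl replicate 3 lay above IR replicate 1. S100a9 equalled 47.0% and 61.0% in IR, against 51.4%, 47.2% and 44.9% in ctrl, and IR replicate 2 alone was outside the ctrl range. S100a6 equalled 5.08% and 3.81% in IR, against 5.49%, 4.27% and 3.55% in ctrl. S100a11 equalled 6.79% and 5.40% in IR, against 3.94%, 5.70% and 4.25% in ctrl. For each of these 4 genes the groups overlapped on this ratio. S100a10 and S100a13, whose own counts overlapped between groups, were among the 60.7% of genes lower in IR on this ratio. S100a10 equalled 3.19% and 1.30% in IR, against 7.77%, 3.98% and 3.56% in ctrl, and S100a13 equalled 0.474% and 0.499% in IR, against 1.57%, 0.967% and 0.578% in ctrl. The overlap depended on the list. The 8 granule and immature neutrophil markers with a row summed to 13713 and 16925 in IR and 8111 to 9836 in ctrl. Over that sum S100a6 and S100a11 stayed above the ctrl range in both IR libraries, where 2.98% of all genes did. S100a8 and S100a9 overlapped on it. Chil3 made up 62.75% of that sum, at 8962 and 6769 in IR against 6483, 7413 and 6762 in ctrl (log2 fold change 0.18). Its part in this result was not tested. Over the lung epithelium markers and over the 6 erythroid markers S100a8, S100a9, S100a6 and S100a11 all overlapped as well. On these ratios 0.658% and 3.18% of all genes had both IR libraries above the ctrl range. Since so few genes parted upward there, nothing about the neutrophil ratio is read from that overlap. S100a8, for example, was 0.0489 and 0.198 of the epithelial sum in IR, against 0.0779, 0.0943 and 0.184 in ctrl. Over the 5 leukocyte markers all 4 stayed above the ctrl range in both IR libraries, where 4.86% of all genes did. Monocytes are another source of calprotectin. Their 10 markers summed to 24903 and 27702 in IR, against 18770 to 22558 in ctrl, with 0 of 10 past the limma threshold. Relative to that sum S100a8, S100a9, S100a6 and S100a11 stayed above the ctrl range in both IR libraries, where 6.71% of all genes did. Summed markers were lower in IR for T cells, at 3313 and 2901 in IR and 4932 to 5542 in ctrl. They were also lower for B cells, at 7065 and 5575 in IR and 7190 to 11881 in ctrl. For alveolar macrophages they were lower as well, at 4788.5 and 6381 in IR and 7736 to 8244 in ctrl. As lower in IR, 1 of 11 T cell, 1 of 9 B cell and 0 of 10 alveolar macrophage markers passed the limma threshold. Of all genes, 16.3% had both IR libraries below all ctrl libraries. The part of cell numbers in these differences was not tested.

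**Figure D4:**
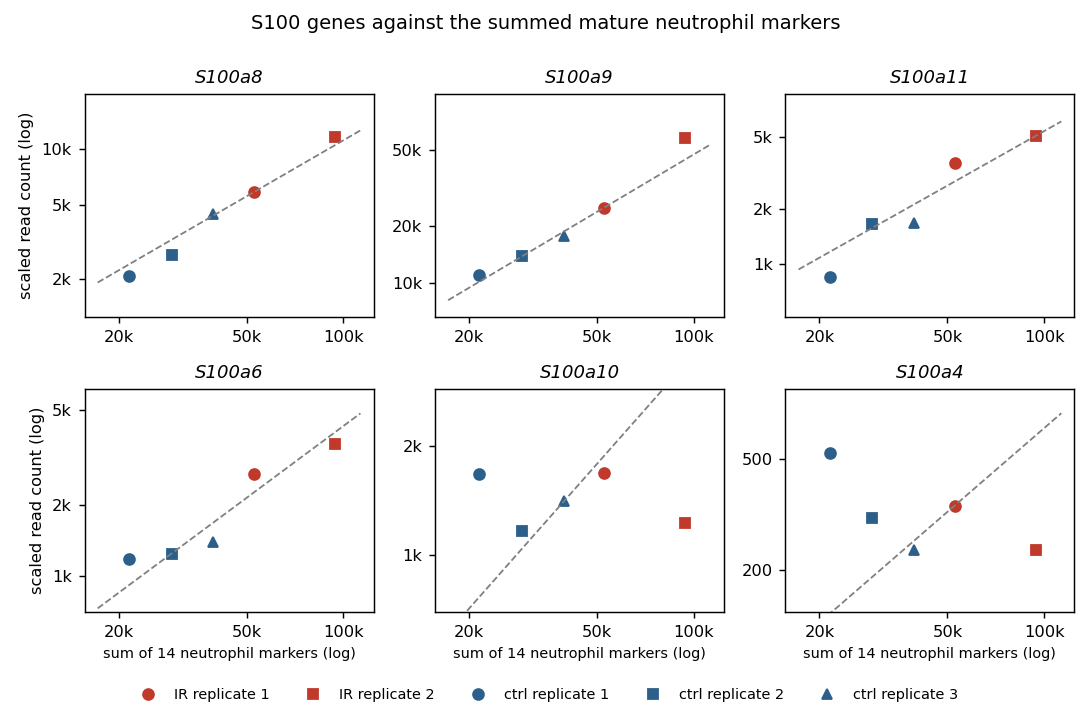
Scaled read count of 6 S100 genes (y axis, log) against the summed scaled counts of 14 mature neutrophil markers (x axis, log), with IR libraries in red and ctrl libraries in blue; the dashed line is a constant ratio at the median of the 5 libraries. S100a8, S100a9, S100a11 and S100a6 lie near the line, and S100a10 and S100a4 do not rise along it.

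The genes whose values over the 5 libraries were most like each member were found by the root mean square difference of centred log2 values among 7249 genes with a mean of at least 100, a level that S100a16 did not reach. The nearest to S100a8 were Hdc (0.07), the histamine-forming enzyme, Tnfsf14 (0.09) and Pglyrp1 (0.11), a granule protein that binds peptidoglycan. For S100a9 they were Acod1 (0.07), which makes itaconate, Grina (0.10) and Rhov (0.10). S100a11 had Cxcr2 (0.05), a chemokine receptor of neutrophils, as its nearest gene, followed by Maged1 (0.15) and Fgl2 (0.17). S100a6 had Glipr2 (0.05), Fam8a1 (0.09) and Hp (0.10), which encodes haptoglobin. Within the family S100a8 and S100a9 were the closest pair, at 0.17, with 8 genes outside the family nearer to S100a8 than S100a9 was. S100a10 and S100a11, neighbours on the chromosome, differed by 0.996, and S100a4 and S100a6 by 0.92. S100a4 was nearest to Ifng (0.07), Ythdc2 (0.10) and Tmem209 (0.11), and S100a10 to Fbxw7 (0.03), Cabin1 (0.03) and Ifi206 (0.03). Map1lc3a (0.12), Tfdp1 (0.13) and Ccpg1 (0.14) were nearest to S100a1, and Agpat4 (0.08), Micu2 (0.09) and Sestd1 (0.11) to S100a13.

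Among 38 tested genes for binding partners, receptors and myeloid transcription factors of the S100 system, 6 rose in IR, 0 fell and 32 did not pass the limma test (adjusted over all genes), beside 1.14% of all genes higher and 0.360% lower. These lists were chosen with earlier results of these data known, so the counts are a description and nothing is read from them. Of 9 annexin genes with Ahnak, 2 rose. Anxa1, whose protein pairs with S100A11 and restrains inflammation, was 3726 and 6592.5 in IR, against 1932, 2104 and 2220.0 in ctrl (log2 fold change 1.25 ± 0.22 SE, limma adjusted p = 0.00358). Anxa2, the partner of S100A10, had 0.85 ± 0.19 (SE; limma adjusted p = 0.0251). The other annexin genes did not pass, and Ahnak, a large scaffold that S100A10 and annexin A2 bind, was 28841 and 27519.7 in IR, against 24320.1 to 31674 in ctrl. The median of this list was 0.37, beside -0.05 over all genes.

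Of 10 genes for receptors of released S100 proteins and their adaptors, Cd14 rose, 0 fell and 9 did not pass, with a median of 0.63. Cd14, the co-receptor that serves TLR4, was 10186 and 16829 in IR, against 4132, 4865 and 6717 in ctrl (1.35 ± 0.23 SE, limma adjusted p = 0.00449). Tlr4 itself was 303 and 323 in IR, against 164 to 209 in ctrl (0.80 ± 0.36 SE, limma adjusted p = 0.296). Ager, which encodes RAGE and is also a marker of alveolar type 1 epithelium, was 159 and 47.9 in IR, against 28.4 to 63.4 in ctrl and did not pass (adjusted p = 0.531). Tlr4 and Ager, like Ahnak, are named here after their values were seen.

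None of 9 intracellular partners passed the limma test, where 2 had an unadjusted p under 0.05; edgeR on recovered reads called 0 and DESeq2 called 1, Plaur, the urokinase receptor. Myh9, the myosin heavy chain that S100A4 binds, was 43463 and 51047 in IR, against 39689 to 45961 in ctrl (0.15 ± 0.16 SE). Cybb, a catalytic subunit of the phagocyte oxidase to which calprotectin brings arachidonic acid, was 6063 and 5867 in IR, against 6637 to 8636 in ctrl (-0.31 ± 0.18 SE, limma adjusted p = 0.435). Among 10 transcription factors of myeloid cells 3 rose and 0 fell. Cebpd was 476 and 993 in IR, against 288, 252 and 323 in ctrl (1.26 ± 0.32 SE, limma adjusted p = 0.0429). Cebpb had 0.83 ± 0.18 (SE; adjusted p = 0.0223) and Spi1, which encodes PU.1, had 0.81 ± 0.21 (SE; adjusted p = 0.0494).

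Whether the 6 genes passed depended on single libraries. Without ctrl replicate 1 or without ctrl replicate 2, limma passed 0 of the 38 genes, with 10 and 11 at an unadjusted p under 0.05, and the adjusted p of the 6 ran from 0.0602 to 0.277 and from 0.0587 to 0.179. The fold changes stayed near those with all libraries: Anxa1 had 1.197 and 1.258, and Cd14 had 1.195 and 1.313, without ctrl replicates 1 and 2. Of all genes, 30 and 40 passed in those runs, against 192 with all libraries. Without IR replicate 2 Cd14 alone passed (0.0326), and without ctrl replicate 3 Cebpd (0.0899) and Spi1 (0.123) did not. On recovered reads edgeR kept 4 of the 6, losing Cebpb (0.0527) and Spi1 (0.0644), and DESeq2 kept all 6 and added Emb and Plaur.

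**Figure D5:**
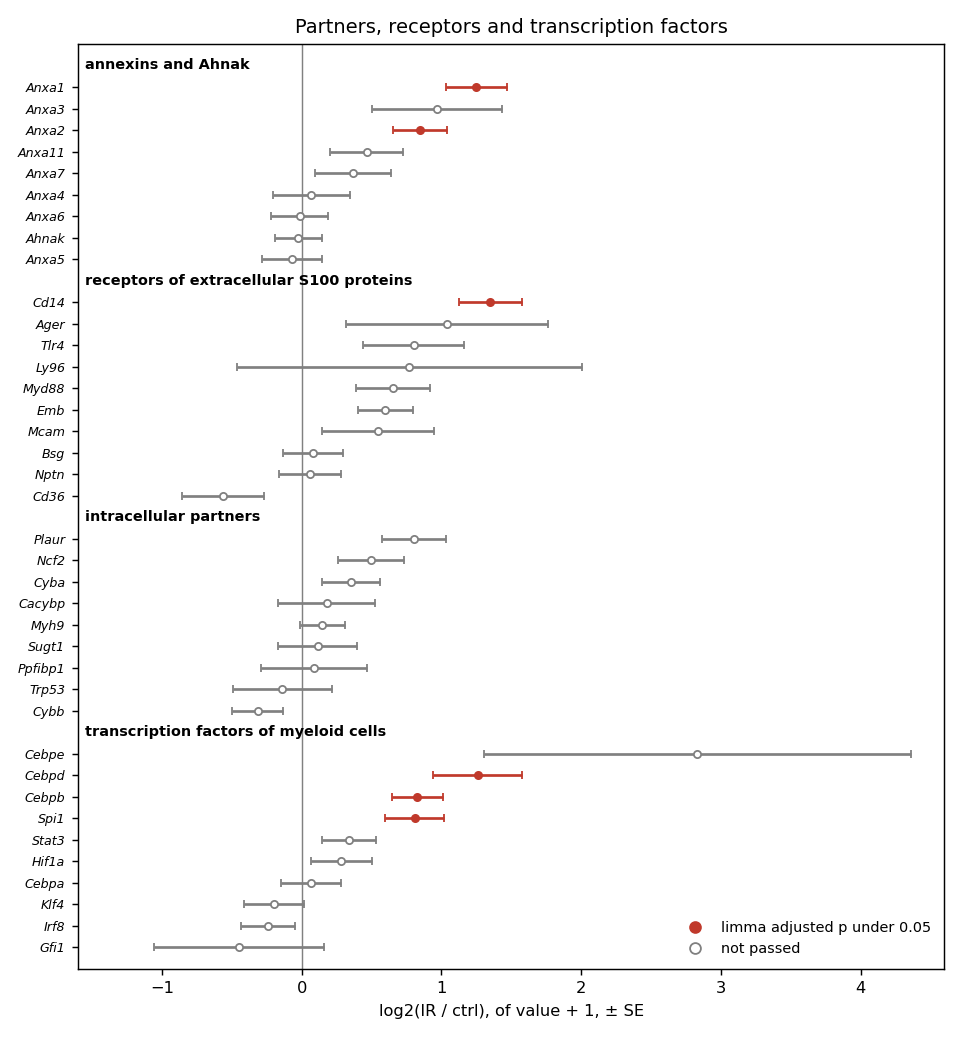
Fitted log2 fold change of IR over ctrl ± SE (x axis, on the log2(value + 1) scale) of 38 genes in 4 lists (y axis); filled red points passed a limma adjusted p of 0.05 over all genes. The 6 filled points, Anxa1, Anxa2, Cd14, Cebpd, Cebpb and Spi1, lie above 0.

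Of 8 further mouse S100 genes on the list, S100g, which encodes the calcium-binding protein calbindin-D9k, was followed as well. The other 7 had no row in the count table and are not analysed here. It was 36.5 and 51.3 in IR, against 3.3, 12.8 and 16 in ctrl, from 39 and 61 reads in IR and 4, 14 and 22 reads in ctrl. The groups did not overlap, and the gene did not pass the limma test (log2 fold change 2.14 ± 1.24 SE, adjusted p = 0.428). S100g lies wholly within Ctps2 on the opposite strand of chromosome X, and Ctps2 was 410 and 300.0 in IR, against 499.5, 539.9 and 480.4 in ctrl.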

How the data were processed

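CD45-sorted lung cells were profiled with a stranded total RNA kit for small inputs, per the labels' protocols. HISAT2, HTSeq and mm10 are named, without versions or roles, per the submitters' processing notes; neither annotation, strand setting nor scaling method is stated there. The deposited signal has 1 decimal, and its steps look like read counts that the authors multiplied by 1 constant per library, an inference from the values. Whole reads were recovered from the steps: within 0.1 of a step, 84.1% (ctrl replicate 3) to 99.7% of values above 0 were whole.

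Rows reaching a value of 10 in 2 or more libraries (12777) were transformed as log2(value + 1), which understates changes of low genes, and fitted with limma 3.58.1 (R 4.3.3; trend, robust, no covariate), with two-sided p-values adjusted by Benjamini-Hochberg over all genes. edgeR 4.0.16 and DESeq2 1.42.0 were run on the recovered reads as alternatives. The procedure was tested on simulated data. Lengths came from GENCODE vM21, which held 14105 of 14457 symbols. Members, gene lists and motifs were chosen with earlier results of these data known. Beside the members, the text names the called genes of each list (otherwise the 2 most abundant) and the 3 nearest profiles of each member with a mean of at least 100. Replicate numbers follow accession order. The counts of alternatives and libraries left out are given at the end.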

Additional observations from a re-analysis of the deposited data

How the results depend on the processing

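The count of all genes called was 314 with a pseudocount of 10, 485 with DESeq2 and 149 with edgeR, where limma gave 146 higher and 46 lower, and between 30 and 1042 with 1 library left out. Leaving out IR replicate 1 gave 1042, IR replicate 2 gave 74, and ctrl replicates 1, 2 and 3 gave 30, 40 and 119. Scaling to library totals moved the median of all genes by -0.12 (log2) and the share of calls that were higher to 55.2%, against 76.0%. The partner count of 6 was 3 without robust estimation and 0 to 9 with 1 library left out. The members' median of 1.28 was 0.998 with a minimum value of 50, which leaves out S100a16, and 1.002 to 1.493 with 1 library left out. S100a4 (-0.51 to 0.08), S100a10 (-0.19 to 0.27) and S100a13 (-0.16 to 0.75) changed sign with 1 library left out, and S100a8, S100a9, S100a6, S100a11, S100a1 and S100a16 did not in these runs. The S100a9 to S100a8 ratio, 4.97 in the median, was 6.61 per length of merged exon. Per length of the longest transcript it ran from 3.80 to 5.11 over the libraries. All 24 nearest-profile pairs were the same after scaling to library totals, which shifts every gene alike. No paired analysis was possible because the labels give no replicate numbers. Beyond these shifts by construction, the cause was not tested. Depth limits S100a16 and S100g, with under 100 reads in every library.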

Other observations

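Within the ctrl group, the highest scaled count divided by the lowest was 1.18 for S100a6, 1.22 for S100a1, 1.44 for S100a10, 1.48 for S100a13, 1.60 for S100a9, 1.98 for S100a11, 2.15 for S100a8, 2.23 for S100a4 and 40.6 for S100a16, which had 1 read in ctrl replicate 2.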
